A study of Mus musculus with 6 samples.

Results

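The genes described here are the ephrin, Slit-Robo and netrin guidance genes: the netrins with their receptors, the Slits with the Robo receptors, and the ephrins with the Eph receptor tyrosine kinases. Membership follows gene symbols, in families picked with earlier results of these data known, and 38 of the 20033 genes in the deposited table matched: 9 EphA and 5 EphB receptors, 5 ephrin-A and 3 ephrin-B ligands, 3 Slits, 3 Robos, 4 netrins and 6 netrin receptors (Dcc, Neo1 and Unc5a to Unc5d). Robo3 was not analysed here. In all there are 15 ligands and 23 receptors.

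Expression was measured by RNA sequencing of mesonephroi from 6 male mouse embryos at E12.5, a day of gestation at which the mesonephros, the transient kidney of the embryo, still holds the Wolffian duct. The 3 control embryos carry the genotype label heterozygous, while the design text calls the same group Wnt9b+/+, so they are called controls. The 3 knockout embryos are labelled as knockouts of Wnt9b, a Wnt ligand secreted by the Wolffian duct, and the knockout is described as global, not limited to the duct. No treatment is given for either group, and the labels name no litter or batch.

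These families guide axons, and they also act outside the nervous system. Netrins are secreted relatives of laminin that attract through Dcc and repel through the Unc5 receptors, and neogenin (Neo1) is a Dcc relative that also binds repulsive guidance molecules. Slits are secreted proteins that bind Robo receptors. In the embryonic kidney, Slit2 and Robo2 restrict the domain of the growth factor Gdnf and so limit the number of ureteric buds that form from the nephric duct. Ephrins are held at the cell surface, the A class by a lipid anchor and the B class by a transmembrane segment, so Eph signalling passes between touching cells and in both directions. Ephrin-B2 and EphB4 mark arterial and venous endothelium.

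Promoter sequence is shown for 3 receptors that lay lower in every knockout than in every control, as described further on. They were chosen because one of them has no copy of the TCF/LEF core motif and the others have 1 each. The sequences come from RefSeq on GRCm38.p6, an older build than the GRCm39 of the deposited table, and cover the 250 bases before the annotated start, 5′ to 3′ along the gene. Capitals mark the core recognised by TCF/LEF, the DNA-binding partners of beta-catenin (CTTTGA, or TCAAAG on the other strand), and the GC box (GGGCGG, or CCGCCC on the other strand).
Epha8, chr4:136956817-136957066, minus strand: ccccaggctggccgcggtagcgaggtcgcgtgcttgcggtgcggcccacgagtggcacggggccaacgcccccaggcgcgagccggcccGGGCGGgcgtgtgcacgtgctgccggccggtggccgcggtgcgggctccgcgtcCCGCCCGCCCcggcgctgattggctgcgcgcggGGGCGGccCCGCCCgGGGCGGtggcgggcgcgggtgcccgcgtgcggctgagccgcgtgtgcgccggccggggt
Epha2, chr4:141300971-141301220, plus strand: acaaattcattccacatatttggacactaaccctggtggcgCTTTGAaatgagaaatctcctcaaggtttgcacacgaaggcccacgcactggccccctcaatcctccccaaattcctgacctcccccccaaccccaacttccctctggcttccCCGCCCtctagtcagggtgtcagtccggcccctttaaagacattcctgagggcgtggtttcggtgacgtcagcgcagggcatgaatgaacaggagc
Robo4, chr9:37401722-37401971, plus strand: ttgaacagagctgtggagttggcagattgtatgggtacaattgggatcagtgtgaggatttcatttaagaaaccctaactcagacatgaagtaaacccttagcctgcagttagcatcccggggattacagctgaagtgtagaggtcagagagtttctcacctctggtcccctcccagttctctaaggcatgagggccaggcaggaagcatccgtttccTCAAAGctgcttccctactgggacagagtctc
The Epha8 stretch holds 6 GC boxes, some of them overlapping, and no CTTTGA on either strand, and 84.0% of its bases are G or C. The Epha2 stretch holds 1 CTTTGA, which begins at position -209 from the start, and 1 GC box. The Robo4 stretch holds 1 copy on the opposite strand at position -32 and no GC box. Ntn1, Unc5d, Slit1, Efnb3 and Dcc had no entry in the promoter table and were not scanned. The other 33 of the 38 guidance genes matched it by symbol, with 38 windows because some have several starts. Across those windows 2 held CTTTGA, those of Epha2 and Robo4 printed above, or 5.26%, against 13.8% of all 32851 windows of the table. Efna5, Ephb1 and Ephb2, also lower in every knockout than in every control, were scanned and had none. The GC box occurred in 26 of the 38 windows, or 68.4%, against 32.7% of all windows. The median share of G and C in the 38 windows was 65.6% against 52.4%. These matches describe letters only and say nothing of binding.

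Levels are given in TPM (a unit of transcript abundance scaled by transcript length and by library total), so genes can be compared with each other. Efnb1, an ephrin-B ligand, was the most abundant of the 38, at 328 ± 26.2 TPM among controls and 329 ± 35.1 TPM among knockouts (mean ± SD, n = 3). Efnb2, Ephb4 and Neo1 followed at means over all 6 libraries of 142, 138 and 107 TPM. At the other end, 4 members did not reach 1 TPM in at least 3 libraries and were not tested: Ntn4, Ntn5, Epha5 and Epha10. Their values ran from 0.0692 TPM for Epha10 in control 3 to 1.13 TPM for Epha5 in knockout 1, and the groups overlapped for each.

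**Figure D1:**
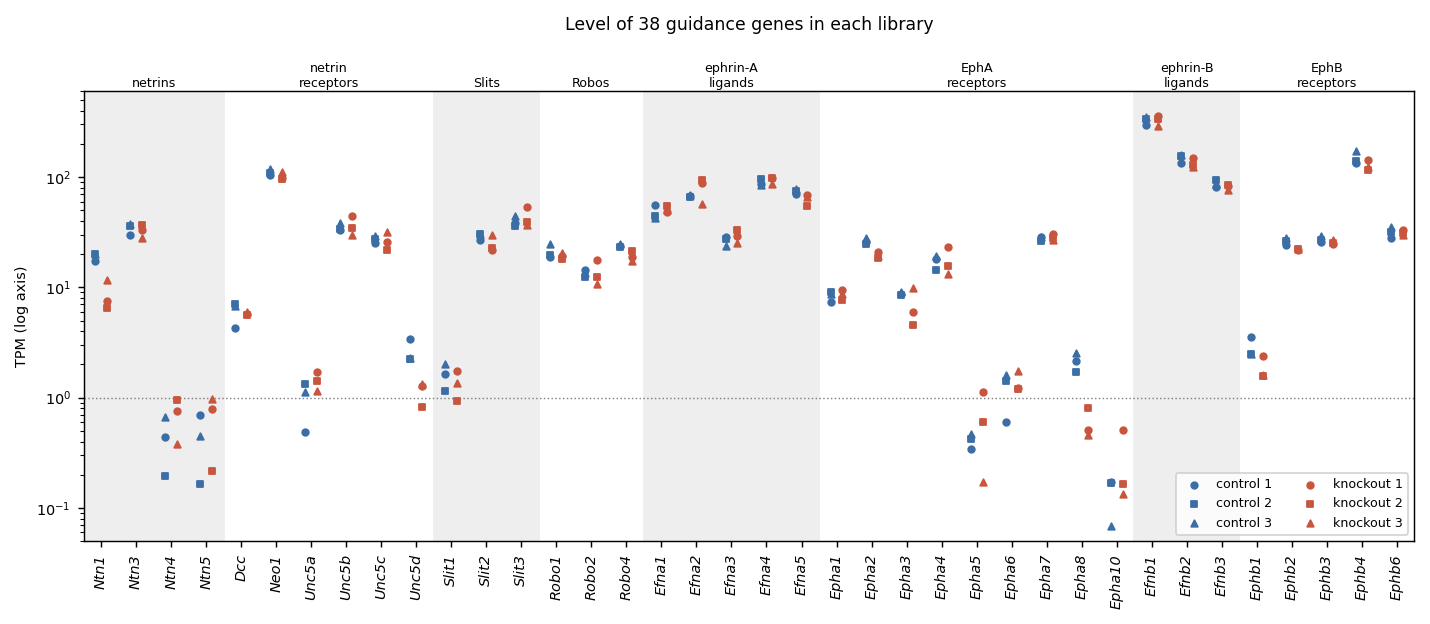
TPM on a log axis of the 38 guidance genes in each of 3 control (blue) and 3 knockout (red) libraries, ordered by class; marker shape gives the embryo number and the dotted line is 1 TPM. Efnb1 is the highest in every library, and Ntn1, Unc5d and Epha8 show a gap between the groups.

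No guidance gene passed the test, which was limma on log2(TPM + 1) with adjustment over all genes tested and a threshold of 0.05. The count was 0 of 34 tested members, where 0.444% of 17577 genes passed (78 genes, 0.131% as higher and 0.313% as lower in knockouts). At an unadjusted p under 0.05 there were 7 members, or 20.6%, all lower in knockouts: Ntn1, Epha8, Epha2, Unc5d, Robo4, Ephb2 and Efna5. Of all genes, 11.3% reached that level, 5.35% as higher and 5.92% as lower. All 3 knockouts were under the lowest control for 8 members, these and Ephb1, or 23.5% (background 8.49%), and over the highest control for 0 (background 8.14%; 16.6% in either direction). Both counts hold Epha8, which passed the filter on low values through its controls alone and so had to be lower; of the other 33 they were 6 (18.2%) and 7 (21.2%). The direction was lower for 23 of the 34, Epha8 among them, and higher for 11, against 51.8% lower and 48.2% higher of all genes. Their median log2 difference was -0.07, and that of all genes was -0.0075.

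Other tests made calls. In the authors' deposited table, an adjusted p under 0.05 stands beside 4 of 37 members, Ntn1, Unc5d, Epha8 and Epha2, all lower. Of all genes there, 3.55% have one, 1.38% as higher and 2.17% as lower. Limma-voom on reads recovered from the TPM values called 3, Ntn1, Epha8 and Unc5d, all lower, where it called 1.6% of all genes, 0.518% as higher and 1.08% as lower. It used the same filter on low values, so Epha8 had to be lower here as well. A missed threshold does not show equal levels: the 95% interval of the log2 difference was narrowest for Efnb3, at -0.29 to 0.07, and widest for Epha6, at -0.44 to 0.73.

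Several facts of the whole series touch these results. At least 27225433 to 31580900 reads per library were recovered, which limits the precision of genes near 1 TPM. Wnt9b itself was still read at 28.5 ± 4.89 TPM among controls and 20.6 ± 2.49 TPM among knockouts, so its level checks the genotype labels little. Of 11 marker lists of the cells that such a dissection can hold, several differed with genotype. Summed markers of gonadal soma (10 genes) ran from 55.8 to 77.7 TPM among controls and from 99.4 to 195 TPM among knockouts, with none of them at 0 in all libraries, and 2 of 7 tested were called higher by limma. Summed markers of duct epithelium (10 genes, Wnt9b itself among them) ran from 307 to 343 TPM among controls and from 248 to 299 TPM among knockouts. Of these markers 2 were called lower, Lhx1 and Calb1. Summed markers of smooth muscle and pericytes (6 genes) ran from 117 to 127 TPM among controls and from 135 to 168 TPM among knockouts, with 0 called. Limma also called Tcf21 of the mesenchyme list as higher, and Pdgfrb of that list and Hand2 of the neural crest list as lower. Of the 9 tested neural crest markers, Hand2 alone was lower in direction and 8 were higher, with a median log2 difference of 0.89. In bulk tissue, fewer cells of a type and less RNA per cell cannot be told apart. The part of these shifts in the guidance genes was not tested.

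Netrin-1 (Ntn1, ENSMUSG00000020902), the founding secreted netrin, showed the lowest difference of the set on the log2(TPM + 1) scale; with a pseudocount of 0.1 Epha8 was lower, at -1.71 against -1.19, and by limma-voom so were Epha8 and Unc5d. It was measured at 17.5, 20.2 and 20.0 TPM in the 3 controls and at 7.59, 6.57 and 11.8 TPM in the 3 knockouts. Every knockout lay below every control, with knockout 3 nearest to them. The mean was 2.22-fold higher in controls, a log2 difference of -1.10 with SE 0.193 (adjusted p = 0.0647 by limma). Between 1006 and 1069 reads stood behind the control values and between 346 and 618 behind the knockout values, so counting error is small here. In the authors' deposited table its fold change is -1.15 on the log2 scale (adjusted p 2.14e-09). Without knockout 3 the limma adjusted p was 0.0103, and with any other library left out it lay between 0.144 and 0.274. With at least 5 TPM required in 3 libraries it was 0.0454, so the gene passed or missed the threshold according to that library, the filter and the test.

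The other netrins did not share this pattern in their means. Netrin-3 (Ntn3), the most abundant of the class, was at 29.9, 35.7 and 37.4 TPM among controls and 33.3, 36.7 and 28.0 TPM among knockouts, so the groups overlapped (log2 difference -0.07). Ntn4, a netrin with a laminin-like structure that sits in basement membranes, did not exceed 0.955 TPM, and Ntn5 did not exceed 0.970 TPM. With Ntn1 lower, the summed level of the 4 netrins was 48.5, 56.2 and 58.5 TPM among controls and 42.4, 44.4 and 41.1 TPM among knockouts, again without overlap. Ntn1 made up 28.7% and Ntn3 69.0% of netrin TPM over all libraries.

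Among netrin receptors, Unc5d (ENSMUSG00000063626), the member of the repulsive Unc5 group best known from cortical neurons, was lower in each knockout. Its control values were 3.41, 2.22 and 2.30 TPM and its knockout values 1.27, 0.827 and 1.32 TPM. Control 1 stood above the other controls, and the groups did not overlap. The log2 difference was -0.76 with SE 0.220 (adjusted p = 0.233 by limma), and limma-voom gave -1.20 with an adjusted p of 0.0494. From 64 to 108 reads supported the knockout values. Neo1, the most abundant netrin receptor with 59.8% of their TPM, was at 105, 109 and 119 TPM among controls and 99.1, 95.6 and 112 TPM among knockouts (log2 difference -0.12, SE 0.0810). Dcc, the attractive receptor, averaged 6.02 ± 1.54 and 5.77 ± 0.157 TPM, and its control values spread far more than its knockout values. Unc5b, which is also expressed in vessels, and Unc5c averaged 35.1 and 27.3 TPM among controls and 36.2 and 26.6 TPM among knockouts. Unc5a, close to the filter at 0.493 to 1.72 TPM, had the highest log2 difference of the 34, 0.31 with SE 0.247 (adjusted p = 0.703 by limma). So 4 of the 6 receptors were lower in direction and 2 higher, and the groups did not overlap for 1, or 16.7%, which is near the 16.6% of all genes.

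**Figure D2:**
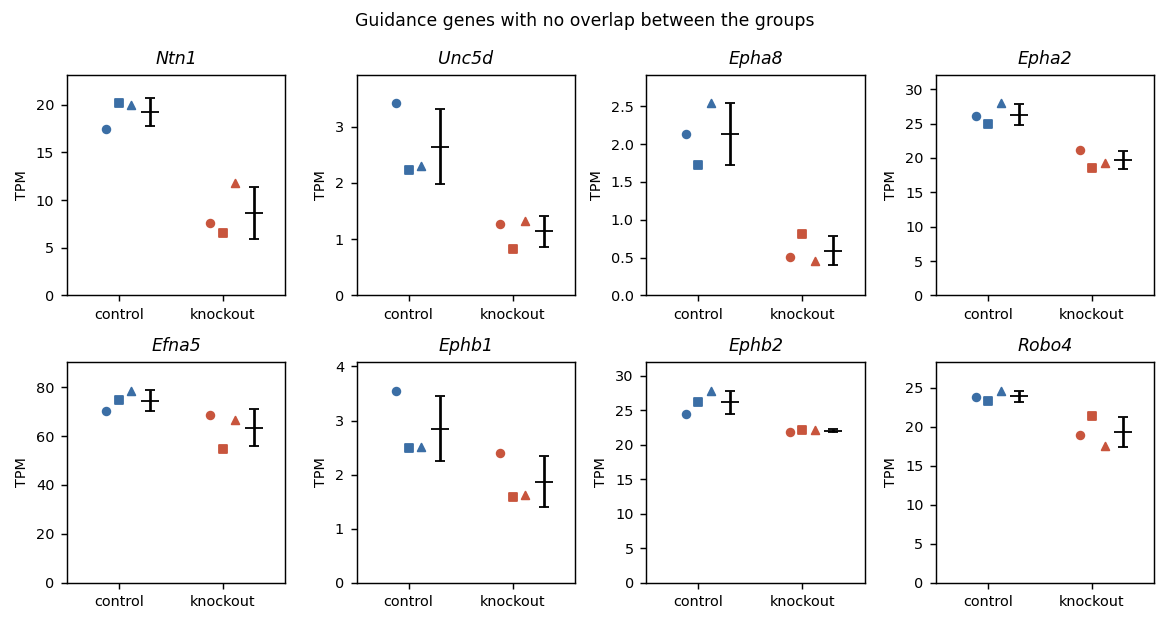
TPM of the 8 guidance genes whose 3 knockout values all lay below their 3 control values; points are libraries, shaped by embryo number, and bars are the mean ± SD of 3 libraries. The gap is widest in proportion for Epha8, Unc5d and Ntn1 and narrowest for Efna5, where 68.6 TPM in knockout 1 lies just under 70.1 TPM in control 1.

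In the Slit-Robo system, the ligands overlapped between the groups. Slit2, which acts with Robo2 at the nephric duct, was at 27.0, 30.2 and 30.5 TPM among controls and 22.0, 22.6 and 30.0 TPM among knockouts. Knockouts 1 and 2 were below all controls and knockout 3 was among them (log2 difference of -0.24 with SE 0.129, adjusted p = 0.566 by limma). Slit3, the most abundant Slit, was at 38.7, 36.1 and 43.9 TPM among controls and 53.9, 39.6 and 36.6 TPM among knockouts, with knockout 1 the highest of all. Slit1, mainly a neural Slit, stayed between 0.925 and 2.00 TPM. Robo1 averaged 21.1 ± 3.22 TPM among controls and 19.3 ± 1.38 TPM among knockouts. Robo2 averaged 13.4 ± 0.901 and 13.6 ± 3.55 TPM, with 17.5, 12.6 and 10.7 TPM in knockouts 1 to 3. Knockout 1 was the highest of the 6 libraries for both Robo2 and Slit3.

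Robo4 (ENSMUSG00000032125), the endothelial Robo whose promoter is printed above, was at 23.8, 23.2 and 24.6 TPM among controls and 19.0, 21.4 and 17.5 TPM among knockouts. All 3 knockouts were below the controls, which lay close together. The log2 difference was -0.30 with SE 0.101 (adjusted p = 0.304 by limma). General endothelial markers were lower alongside it: all 8 had negative log2 differences, with a median of -0.25, and their summed level ran from 445 to 481 TPM among controls and from 376 to 416 TPM among knockouts. The endothelial cadherin gene Cdh5 had a log2 difference of -0.28 and the receptor gene Tie1 one of -0.28, close to that of Robo4. These genes and Kdr, at -0.40, were the 3 markers of the 8 without overlap. The other markers overlapped between the groups, with log2 differences from -0.26 for Tek to -0.05 for Emcn. None of the 8 was at 0 in all libraries and none was called by limma. Their part in the Robo4 difference was not tested.

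Ephb4 and Efnb2, the venous and arterial members, were less clear. Ephb4, with 62.0% of EphB receptor TPM, was at 133, 141 and 173 TPM among controls and 142, 117 and 124 TPM among knockouts, so knockout 1 fell inside the control range (log2 difference of -0.22 with SE 0.112, adjusted p = 0.539 by limma). Efnb2 was at 134, 154 and 159 TPM among controls and 150.2, 129 and 124 TPM among knockouts (log2 difference -0.15, SE 0.0938). The 5 arterial markers summed to 51.0 to 63.2 TPM among controls and 59.9 to 70.6 TPM among knockouts, which overlap. They went both ways: Sox17 was lower without overlap (log2 difference -0.45), Hey1 was higher without overlap (0.50), Dll4, Gja5 and Gja4 overlapped, and the median was -0.0071.

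**Figure D3:**
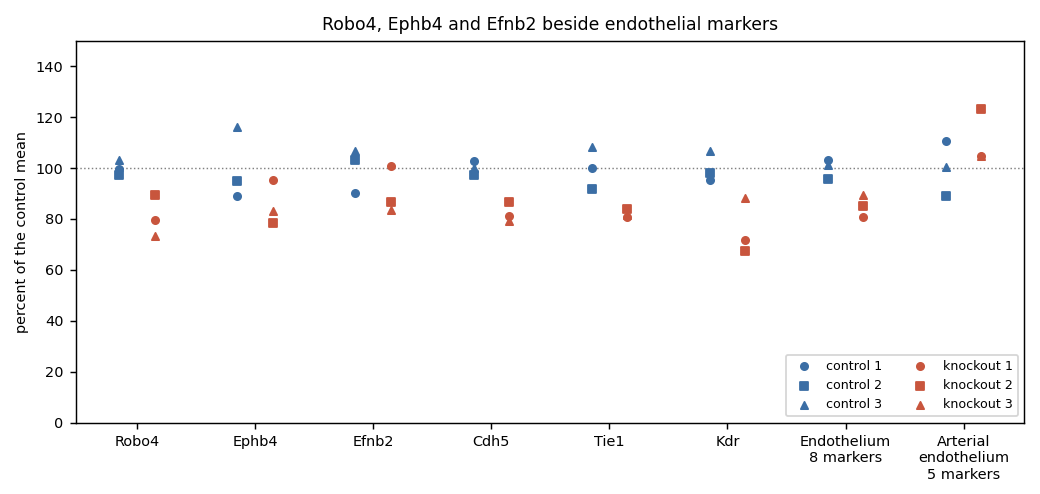
Level of Robo4, Ephb4, Efnb2, 3 endothelial genes and 2 summed marker lists in each library, as percent of the mean of the 3 controls (dotted line at 100%). The 3 endothelial genes, Cdh5, Tie1 and Kdr, are those of the 8 markers whose groups do not overlap. Robo4 in knockouts lies at 73.2% to 89.4% and the 8 summed endothelial markers at 80.7% to 89.4%, and the sum of the 5 arterial markers, of which 3 are lower and 2 higher in direction, at 105% to 123%.

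In the Eph family, Epha8 (ENSMUSG00000028661), a receptor known mainly from the developing midbrain, had the largest proportional difference. Controls were at 2.14, 1.72 and 2.54 TPM and knockouts at 0.507, 0.809 and 0.456 TPM, and the lowest control was above the highest knockout. The mean was 3.61-fold higher in controls. All 3 knockouts were under 1 TPM, so the gene entered the test through its controls alone. Recovered reads were 98, 67 and 96 in controls and 22, 32 and 18 in knockouts. The log2 difference on the log2(TPM + 1) scale, which understates change at this level, was -0.98 with SE 0.217 (adjusted p = 0.126 by limma), and limma-voom gave -1.85 (adjusted p = 0.0237). In the authors' deposited table the value is -1.84 (adjusted p 0.000347).

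Epha2 (ENSMUSG00000006445), an EphA receptor of epithelia whose upstream sequence holds the CTTTGA core, was at 26.1, 24.9 and 27.9 TPM among controls and 21.1, 18.6 and 19.3 TPM among knockouts. Both groups were tight and did not overlap. Its log2 difference was -0.40 with SE 0.0946 (adjusted p = 0.146 by limma; limma-voom adjusted p = 0.0654), while in the authors' deposited table it is -0.41 (adjusted p 0.00962). Of the 10 duct markers, Wnt9b itself among them, 7 were lower and 3 higher in direction. Their median log2 difference was -0.27, with a range from -1.35 for Calb1 to 0.17 for the epithelial cadherin gene Cdh1. Whether duct content takes part in the Epha2 difference was not tested.

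The remaining EphA receptors did not separate the groups. Epha7, the most abundant with 31.9% of EphA TPM, was at 28.9, 26.2 and 28.4 TPM among controls and 30.5, 27.8 and 26.8 TPM among knockouts (log2 difference 0.03, 95% interval -0.18 to 0.23). Epha4, which has been studied with Epha7 in the joining of the nephric duct to the cloaca, averaged 17.1 ± 2.45 and 17.4 ± 5.39 TPM, with 23.5 TPM in knockout 1 and 13.1 TPM in knockout 3. Epha3 was steady in controls at 8.66, 8.50 and 9.06 TPM and ran from 4.55 to 9.90 TPM among knockouts. Epha1 and Epha6 averaged 8.35 and 1.21 TPM among controls and 8.58 and 1.40 TPM among knockouts.

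All 5 EphB receptors had negative log2 differences, from -0.43 for Ephb1 to -0.01 for Ephb6, and 51.8% of all genes tested had a negative one. Ephb6, a receptor without kinase activity, turned positive without control 3, without knockout 3 and by limma-voom. Ephb2 (ENSMUSG00000028664), a known Wnt target in the intestine, was at 24.5, 26.2 and 27.9 TPM among controls and 21.8, 22.2 and 22.2 TPM among knockouts. The knockout values were nearly equal and all lay below the controls (log2 difference of -0.23 with SE 0.0875, adjusted p = 0.362 by limma). Ephb3, another Wnt target of the intestine, was at 25.6, 26.9 and 29.3 TPM among controls and 25.0, 25.3 and 27.2 TPM among knockouts, which overlapped (log2 difference -0.07, SE 0.0892). Ephb1 was low, at 3.55, 2.49 and 2.51 TPM among controls and 2.41, 1.58 and 1.62 TPM among knockouts, without overlap (SE 0.212; limma adjusted p = 0.519). Ephb2 and Epha8, both lower, are neighbours on chromosome 4 in RefSeq's GRCm38.p6 gene order, with 3 protein-coding genes between them, C1qb, C1qc and C1qa.

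Of the 5 ephrin-A ligands, 4 had positive log2 differences, as did 48.2% of all genes, and none passed limma. Their summed level overlapped, at 298 to 309 TPM among controls and 285 to 336 TPM among knockouts. Efna4, the most abundant, was at 87.4, 95.7 and 83.9 TPM among controls and 97.2, 99.0 and 86.0 TPM among knockouts (log2 difference 0.08). Efna1 and Efna3 had log2 differences of 0.11 and 0.12, and these genes and Efna4 lie side by side on chromosome 3 in the RefSeq gene order, with 0 protein-coding genes between them. Efna2 was at 66.7, 66.6 and 69.4 TPM among controls and 88.5, 94.4 and 56.5 TPM among knockouts. Knockouts 1 and 2 were above and knockout 3 was below every control (log2 difference of 0.20 with SE 0.171, adjusted p = 0.723 by limma). Without knockout 3, Efna2 passed as higher, with a log2 difference of 0.43 (limma adjusted p = 0.0328). Efna5, a ligand of several EphA receptors, was the exception in direction, at 70.1, 74.8 and 78.5 TPM among controls and 68.6, 54.7 and 66.7 TPM among knockouts (log2 difference of -0.24 with SE 0.0977, adjusted p = 0.419 by limma). Knockout 2 was the lowest, and the gap between the groups was small.

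The ephrin-B ligands were the most abundant class. Efnb1 was at 299, 337 and 349 TPM among controls and 359, 339 and 290.4 TPM among knockouts, fully overlapping (95% interval of the log2 difference -0.21 to 0.22). Efnb3, best known from the neural midline, averaged 87.4 ± 7.03 TPM among controls and 81.1 ± 3.85 TPM among knockouts (log2 difference -0.11). Efnb1 alone made up 59.3% of ephrin-B TPM.

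**Figure D4:**
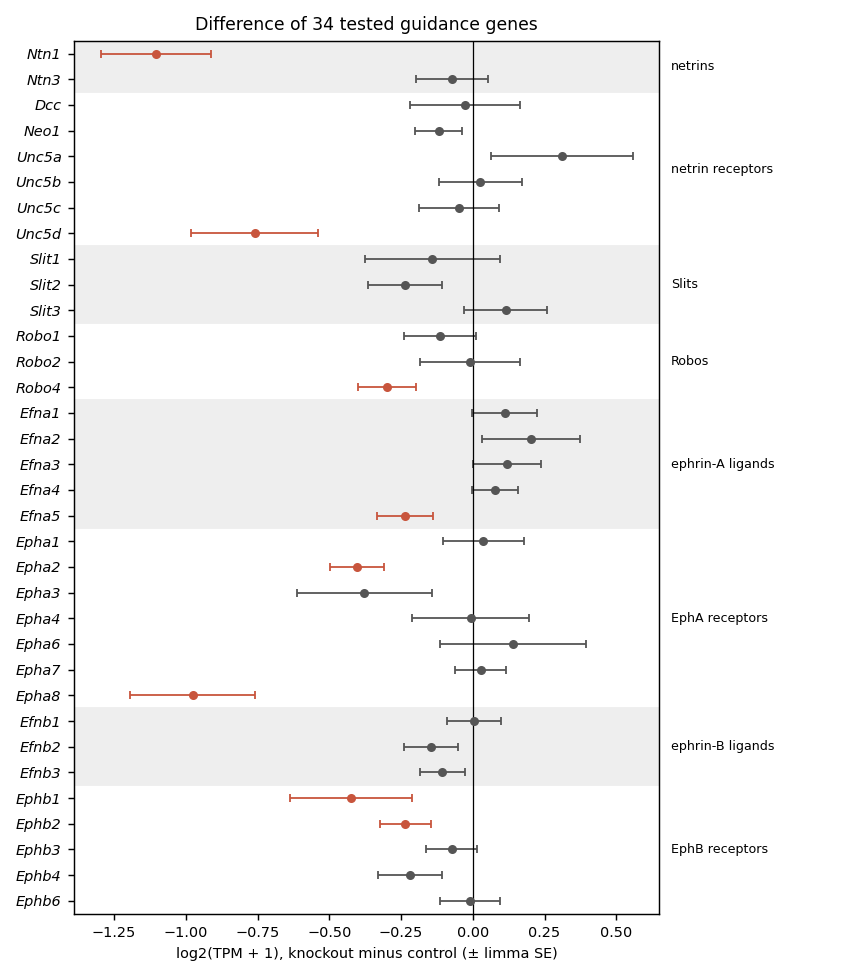
Log2 difference of knockout minus control on the log2(TPM + 1) scale for the 34 tested guidance genes, with limma's standard error as bars; red marks the 8 genes whose groups do not overlap. Those 8 all lie left of 0, from Ntn1 at -1.10 to Ephb2 at -0.23, and most of the other members lie close to 0.

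Set side by side, 16 of 21 tested receptors and 7 of 13 tested ligands had negative log2 differences, with medians of -0.07 for both. In the Eph-ephrin system the median was -0.15 for 12 receptors and 0.04 for 8 ligands, and the difference between these was not tested. The 16 receptors and the 12 both include Epha8, which passed the filter through its controls alone and so had to be lower. With Epha8 set aside, the middle value of the Eph receptors is that of Ephb3, at -0.07. Summed Eph receptor levels were 307, 315 and 366 TPM among controls and 319, 274 and 285 TPM among knockouts, and summed ephrins 822, 894 and 893 TPM against 923, 888 and 777 TPM. The ratio of ephrin to Eph TPM was 2.65 ± 0.200 in controls and 2.95 ± 0.260 in knockouts, which overlapped. In the netrin system the ratio of ligand to receptor TPM was 0.282, 0.311 and 0.297 in controls and 0.237, 0.278 and 0.225 in knockouts, so each knockout lay below each control. Ntn1 was the only netrin whose own values did not overlap between the groups. The Slit to Robo ratio averaged 1.20 in controls and 1.33 in knockouts, with an overlap.

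**Figure D5:**
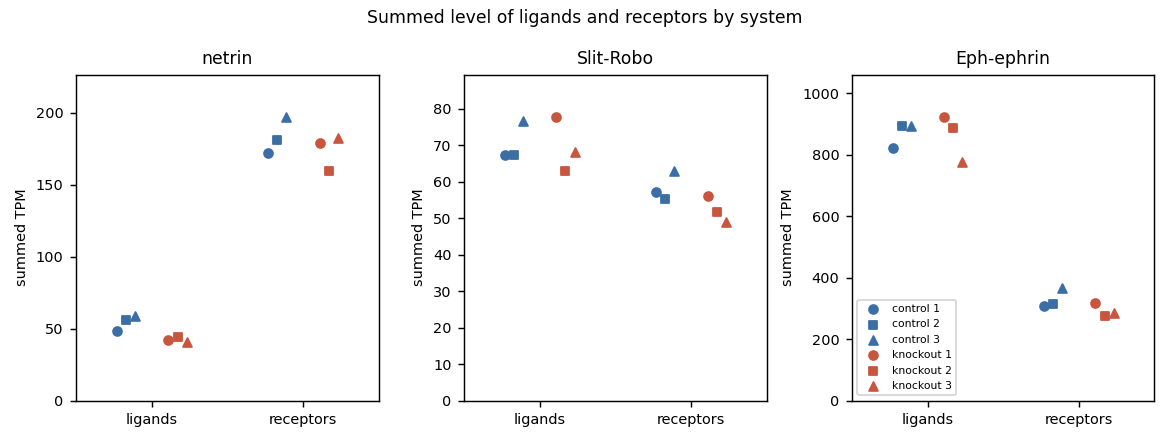
Summed TPM of ligands and of receptors in each system for 3 control (blue) and 3 knockout (red) libraries. Netrin ligands in knockouts lie at 41.1 to 44.4 TPM, under the lowest control at 48.5 TPM, whereas the other sums for ligands overlap. Among single netrins only Ntn1 does not overlap.

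Partners of these systems (co-ligands, adaptors, exchange factors and proteases) were read from the same fit. Of 56 listed, 54 were found and tested, and limma called 0 after adjustment over the whole table (9, or 16.7%, had an unadjusted p under 0.05, against 11.3% of all genes, and limma-voom called 1, Sdc2, or 1.85% against 1.6%). Their median log2 difference was -0.06. Flrt2 and Sdc2 had the highest levels. Sdc2, a syndecan of the cell surface, was at 179.9, 163 and 179 TPM among controls and 120.0, 124 and 151 TPM among knockouts, without overlap (log2 difference of -0.41 with SE 0.0943, adjusted p = 0.144 by limma, and below the threshold without knockout 3). Flrt2, a membrane protein that binds Unc5 receptors, was at 156, 167 and 196 TPM among controls and 126, 129.6 and 197 TPM among knockouts. Knockout 3 was level with the highest control, while the other knockouts were below all of them.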

How the data were processed

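Per the labels' protocols, poly(A) RNA of 6 mesonephroi was read in pairs of 150 bases. GRCm39 and DESeq2 are named in the submitters' processing notes; an aligner, a counting tool, a strand setting and an annotation release were not given in the sources used here. Per the file headers, the authors deposited 1 TPM column per embryo for 20033 genes. Per the file headers, the authors' own log2 fold change, p-value and adjusted p-value stand beside them, with no adjusted p for 1175 genes, and are always named as theirs.

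Libraries were grouped by title. The design allowed for counts, and since the values are TPM, limma 3.58.1 in R 4.3.3 was fitted to log2(TPM + 1) with a mean-variance trend and genotype as the only term, keeping genes that reached 1 TPM in 3 or more libraries. Benjamini-Hochberg adjustment covered 17577 genes, with a threshold of 0.05. Nothing says whether embryos share a litter, so p-values measure the spread between these embryos. The main limma fit was also run on simulated reads, with the same dispersion set for every gene and embryo. Read recovery, limma-voom and the alternatives were not part of that run, and its outcome is not reported here.

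Reads were recovered from TPM except for a multiple that all libraries share at a gene, so they are lower bounds: 20022 of 20033 genes came out whole within 0.02 reads. In a check of 1000 genes with up to 4000 reads, the deposited values gave whole reads for 93.5%, and values changed at random by 5% did so for 0.1%. Limma-voom on these reads was added after the data were seen.

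The members and gene lists were chosen with earlier results of these data known. Values in every library are given for members whose groups do not overlap and for the most abundant of each class; other members given so were chosen after their values were seen. Partners were named if they passed, or else the 2 of highest level. Alternatives were other scalings, filters and pseudocounts, no trend, a replicate block, and each library left out. Mice are numbered 1 to 3 in both groups, and the numbers are not known to pair them.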

Additional observations from a re-analysis of the deposited data

How the results depend on the processing

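Over the 15 alternatives (14 for genes that a minimum of 5 TPM leaves out), 21 of 34 tested guidance genes kept the sign of their log2 difference. Of these, 7 moved by no more than 1.5 times with any 1 library left out: Ntn1, Epha8, Unc5d, Epha2, Robo4, Ephb1 and Ephb2. The other 14 moved by more with at least 1 library left out, among them Ephb4 (-0.22, and -0.11 without control 3), Efna5 (-0.24, and -0.14 without knockout 2), Epha3 (-0.38, and -0.16 without knockout 2 or -0.65 without knockout 3) and Slit2 (-0.24, and -0.38 without knockout 3). Among the 7, Epha8 went from -0.98 to -1.71 with a pseudocount of 0.1 and to -1.85 by limma-voom. Unc5d went from -0.76 to -1.20 by limma-voom. Under the filter on low values Epha8 had to be lower. The count of guidance genes called was 0 in the reported fit, 1 (Ntn1, limma adjusted p = 0.0454) with at least 5 TPM in 3 libraries, 0 to 2 with 1 library left out and 3 by limma-voom on recovered reads; it was 0 under every other alternative. The 2 were Ntn1 and Efna2, without knockout 3. Partners called were 0 to 1 with 1 library left out and 1 by limma-voom, both times Sdc2. Over all genes the count was 78, against 28 without a mean-variance trend, 281 by limma-voom and 13 to 243 with 1 library left out (28, 13 and 14 without control 1, 2 and 3; 33, 23 and 243 without knockout 1, 2 and 3). With the replicate block it was 17, and the block called 0 guidance genes; deviations of libraries of the same number correlated at -0.06 to 0.05, so the numbers give no sign of pairing. The cause of these changes was not tested. Fewer genes were tested under the stricter filter. The sign turned for 13 genes. With 1 library left out, values ran from -0.064 to 0.091 for Efnb1, -0.048 to 0.10 for Epha1, -0.23 to 0.17 for Epha4, -0.075 to 0.28 for Epha6, -0.024 to 0.065 for Epha7, -0.093 to 0.071 for Ephb6, -0.050 to 0.22 for Slit3, -0.18 to 0.0026 for Robo1, -0.20 to 0.14 for Robo2, -0.17 to 0.031 for Ntn3, -0.22 to 0.079 for Dcc, -0.13 to 0.16 for Unc5b and -0.19 to 0.080 for Unc5c. Efnb1 was at -3.49e-05 with upper-quartile scaling, and Epha4 at 0.0017 with median-ratio scaling. By limma-voom, Epha4 was at 0.014, Ephb6 at 0.012, Robo2 at 0.0082 and Dcc at 0.0049. Scaling moved the median of all genes by at most 0.0085. Near 1 TPM precision is low: the 95% intervals of Unc5a, Slit1 and Epha6 hold both 0 and the log2 difference of Ephb2.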

Other observations

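The spread within groups went both ways. Dcc, Robo1 and all 5 EphB receptors varied more among controls, with an SD for Ephb4 of 21.1 against 13.1 TPM. The share of all genes going each way was not counted. Several other guidance genes varied more among the knockout embryos than among the controls, a pattern chosen after the values were seen. In knockouts 1 to 3, Unc5b was at 44.8, 34.3 and 29.6 TPM, Slit3 at 53.9, 39.6 and 36.6 TPM, Epha4 at 23.5, 15.7 and 13.1 TPM and Robo2 at 17.5, 12.6 and 10.7 TPM. The highest value of each was in knockout 1 and the lowest in knockout 3. Summed gonadal soma markers were 195, 156 and 99.4 TPM in the same embryos, and summed markers of neural crest, glia and neurons 171, 118 and 93.9 TPM. Germ cell markers (47.5, 35.4 and 18.5 TPM) and duct markers (299, 271 and 248 TPM) had the same order, and markers of endothelium (376, 397 and 416 TPM), smooth muscle (135, 150.2 and 168 TPM) and blood (4176, 4700 and 5346 TPM) the opposite one. Mesenchyme markers (2217, 2371 and 2382 TPM) also had the opposite order. Most of the blood sum was Hba-a1 (3966, 4489 and 4867 TPM). Neither order held for markers of tubule and podocyte (481, 454 and 524 TPM), Mullerian duct and coelomic epithelium (286, 266 and 324 TPM) or arterial endothelium (59.9, 70.6 and 60.0 TPM). Slit2, Epha3 and Ntn1 were highest in knockout 3 instead, at 30.0, 9.90 and 11.8 TPM. With 3 embryos the relation between these genes and the marker sums was not tested.

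The most abundant guidance genes ranked high in the whole table. By mean TPM over 6 libraries Efnb1 ranked 370 of 20033 genes, Efnb2 1055, Ephb4 1093 and Neo1 1598. The EphA receptors reached no such level, the highest being Epha7 at rank 6528.

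Recovered reads of the rarest members were few: Epha10 had 2 to 17 reads per library, Ntn4 3 to 15 and Ntn5 3 to 18, as lower bounds.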
